A study of Mus musculus with 8 samples.

Results

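Amino acid transporters of the liver were followed as a set of 9 genes, taken as every probe set that the platform annotation pairs with exactly 1 of them: Slc38a2, Slc38a3, Slc38a4, Slc7a2, Slc7a5, Slc3a1, Slc1a4, Slc43a1 and Slc6a9. A probe set is the group of short oligonucleotides on an Affymetrix array that together measure 1 transcript. The rule gave 14 probe sets of 22690 for 8 of the 9 genes, and the level of Slc43a1 was not analysed here. Livers came from 4 TrxR1/Gsr-null and 4 wild-type (WT) female mice, all 4 weeks old and on a C57BL/6J background, with 1 array per liver. The null livers are labelled as lacking TrxR1, the cytosolic thioredoxin reductase encoded by Txnrd1, and Gsr, glutathione reductase, and the series title refers to the Nrf2 response. The labels give neither the alleles nor any promoter that drove a deletion, and they name no treatment in either group. Values are log2 expression values per probe set, so a difference of 1 is a 2-fold change, and levels of different probe sets cannot be set against each other.

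Hepatocytes take amino acids from portal blood through carriers of several families. Slc38 proteins couple small neutral amino acids to sodium, as system A (Slc38a2 and Slc38a4) or as system N (Slc38a3), which carries glutamine, histidine and asparagine. Slc7a2 carries arginine, lysine and ornithine, Slc3a1 is the heavy chain that brings a cystine and dibasic amino acid carrier to the membrane, Slc7a5 and Slc43a1 carry large neutral amino acids, Slc1a4 exchanges alanine, serine and cysteine, and Slc6a9 carries glycine. Glycine, cysteine and glutamate are the building blocks of glutathione, and several of these genes are known targets of the amino acid response, in which the transcription factor Atf4 raises transporters and biosynthetic enzymes.

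Slc6a9 and Slc1a4 rose in TrxR1/Gsr-null liver, 4.47-fold and 3.32-fold, while Slc7a2, Slc3a1 and Slc38a3 fell, 3.03-fold, 3.33-fold and 1.77-fold. Slc38a4 and Slc38a2 did not pass the test, and Slc7a5 lay near background in both groups. Of the 9 genes, 7 passed the filter on low values, each with all 8 arrays above the limit of 3.38 that the filter set. Of these 7, 2 were called higher and 3 lower in limma (adjusted p below 0.05 over all 7534 genes tested), where 4.47% of all genes were called higher, 2.15% lower and 6.62% either way. The 4 values of one group lay apart from the 4 of the other for 5 of the 7 genes, against 16.6% of all genes. Over all probe sets with no filter, 5 of the 14 were called higher and 4 lower, against 2.09% and 0.888% of 22626 (2.97% either way). With 1 array left out, 2 to 4 probe sets were called higher, the fewest without WT replicate 3, and 1 lower, or 0 without null replicate 1 or 2. Of the genes, 1 was called higher without null replicate 1 or 4 or WT replicate 2, and 1 lower without null replicate 1 or 2. Leaving out null replicate 3 or 4 or WT replicate 1, 3 or 4 gave 2 genes lower. The plots of the member values show all 14 probe sets on every array.

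**Figure D1:**
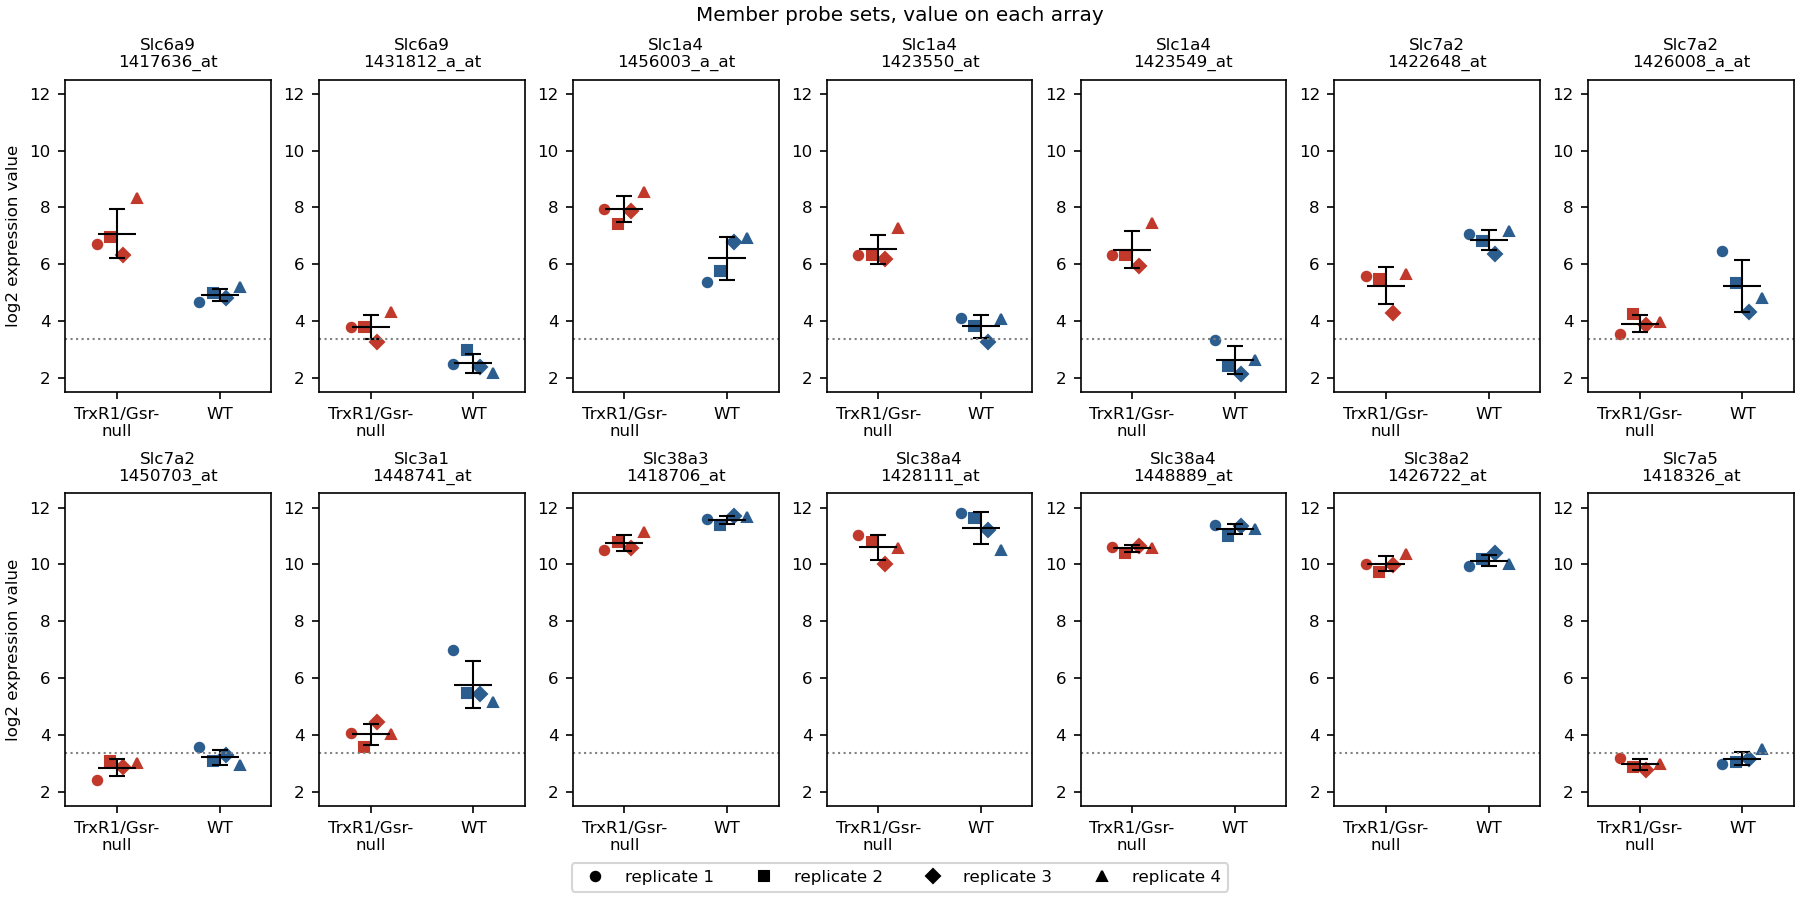
Log2 expression value of each of the 14 member probe sets on every array, TrxR1/Gsr-null livers (red) left of WT livers (blue). Marker shapes are replicate numbers, bars are the mean ± SD of 4 arrays and the dotted line is the low-value limit of 3.38. All 3 Slc1a4 and both Slc6a9 probe sets were higher in every null liver than in any WT liver, and the Slc3a1, Slc38a3 and brightest Slc7a2 probe sets were lower in every null liver.

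As a check of the labels, the brighter Gsr probe set averaged 6.01 ± 0.22 in TrxR1/Gsr-null and 7.16 ± 0.09 in WT liver (SD, n = 4 each), and the only Txnrd1 probe set above the limit averaged 11.92 ± 0.19 and 9.82 ± 0.17, higher in the null livers. Which stretch of Txnrd1 was removed is not given in the labels, and a probe set outside it checks nothing about the deletion. The values of the other 6 arrays spread more widely (interquartile range 4.31 to 4.44) than those of WT replicates 3 and 4 (3.97 and 3.74). Of 8 hepatocyte markers 7 were tested and none was called, but their summed level (log2 of the summed linear values) was 15.66 to 16.07 in null and 16.15 to 16.33 in WT livers. No marker of Kupffer, endothelial, stellate or lymphoid cells was called. Of the 8 endothelial markers 7 were lower in null livers, with a median log2 difference of -0.63, against -0.32 for the hepatocyte list. Also lower were 7 of 7 hepatocyte, 6 of 7 stellate, 5 of 8 Kupffer and 0 of 2 lymphocyte markers tested. Stab2 and Egfl7 did not overlap between groups (adjusted p = 0.0722 and 0.0807 by limma). The same held for 2 of 8 Kupffer, 2 of 7 hepatocyte and 1 of 7 stellate markers tested, and for 16.6% of all genes. The summed endothelial level was 10.63 to 11.11 in null and 10.83 to 11.20 in WT livers, and the pancreas and kidney markers reached at most 3.85. Of 7 bile duct markers 2 were tested, and Epcam was called higher at 3.87 ± 0.34 in null and 2.93 ± 0.33 in WT liver. The other, Sox9, went the other way, at 3.26 ± 0.36 in null and 3.45 ± 0.52 in WT liver, and was not called (adjusted p = 0.743 by limma). The summed level of the list was 5.48 to 5.85 in null and 5.15 to 5.76 in WT livers. All 4 WT values and 1 null value of Epcam were below the limit, and its call was lost without null replicate 1, 2 or 4 or WT replicate 1, 3 or 4 (adjusted p from 0.0683 to 0.125 by limma) and with no filter (adjusted p = 0.0513). These are whole livers, in which fewer cells of a type and less RNA per cell cannot be told apart, and the part of any shift in cell types in the results below was not tested.

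Among the carriers of small neutral amino acids that rose, Slc6a9, the glycine transporter, had values of 6.71, 6.96, 6.34 and 8.32 in the TrxR1/Gsr-null livers and 4.67, 4.98, 4.82 and 5.20 in the WT livers. The lowest null liver was thus above the highest WT liver, and null replicate 4 stood above the other 3 null livers. The log2 difference was 2.16 ± 0.37 (SE), with a 95% interval of 1.33 to 2.99 and adjusted p = 0.00779 by limma. A dimmer Slc6a9 probe set read 3.79, 3.79, 3.28 and 4.31 in null and 2.48, 2.98, 2.39 and 2.18 in WT livers, a log2 difference of 1.28 ± 0.24 (SE; adjusted p = 0.0235 over all probe sets by limma). Every WT value of that probe set was below the limit, so its size depends on how background was estimated. The Slc6a9 call held with each array left out in turn (adjusted p from 0.00353 to 0.027). Erythroid precursors also use Slc6a9. Of 9 erythroid markers 4 were tested and only Tfrc, the transferrin receptor that many cells carry, was called, at 9.49 ± 0.88 in null and 6.18 ± 0.29 in WT liver. The summed level of the list, in which Tfrc enters at that probe set, was 9.17 to 10.41 in null and 7.40 to 8.11 in WT livers. Tfrc was 9.96-fold higher there, against 2.16-fold with the mean of its probe sets. Alas2, the erythroid enzyme of heme synthesis, read 5.84, 5.91, 7.09 and 6.19 in null and 7.17, 6.18, 6.24 and 6.59 in WT livers and was not called (adjusted p = 0.645 by limma).

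Slc1a4, the exchanger of alanine, serine and cysteine, was higher in the null livers in each of its 3 probe sets, by amounts that differed between them. The brightest read 7.96, 7.41, 7.86 and 8.54 in TrxR1/Gsr-null and 5.39, 5.77, 6.78 and 6.91 in WT livers, a log2 difference of 1.73 ± 0.37 (SE; adjusted p = 0.0214 by limma). WT replicates 3 and 4, the arrays with narrow distributions, were the higher WT values there, which the other 2 probe sets did not show. The second read 6.31, 6.33, 6.17 and 7.29 in null and 4.12, 3.81, 3.25 and 4.07 in WT livers, 6.53-fold (adjusted p = 0.00125 by limma over all probe sets). The third read 6.32, 6.34, 5.93 and 7.46 in null livers and 3.32, 2.43, 2.13 and 2.62 in WT livers, with all 4 WT values below the limit, and gave 14.8-fold (adjusted p = 0.000496 by limma). With the mean of the 3 probe sets the fold was 6.85, and without the brightest, whose suffix marks it as able to match several transcripts of the gene, it was 6.53. The call of the brightest was lost without TrxR1/Gsr-null replicate 1 or 4 or WT replicate 2 (adjusted p = 0.0616, 0.0623 and 0.0527) and after quantile normalization (adjusted p = 0.0513).

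The bases before the transcription start of the members that rose are shown with those of Slc38a2, which did not pass the test, because Atf4 and Nrf2 are known to bind short elements in promoters. RefSeq start regions (GRCm38.p6) were found for 6 of the 9 genes and for 10 starts. Those of Slc38a3, Slc7a2 and Slc7a5 were not used here. The 250 bases before each start were searched on both strands for the core of the amino acid response element, TGATGNAA, and of the antioxidant response element, TGACNNNGC. Capitals below mark a match to the second core, and the motifs did not overlap. The windows are chr4:117849100-117849349 and chr4:117855297-117855546 on the plus strand for the second and the third Slc6a9 starts, chr11:20332714-20332963 on the minus strand for Slc1a4 and chr15:96699729-96699978 on the minus strand for Slc38a2, each printed 5′ to 3′ along the gene.
Slc6a9, the second start: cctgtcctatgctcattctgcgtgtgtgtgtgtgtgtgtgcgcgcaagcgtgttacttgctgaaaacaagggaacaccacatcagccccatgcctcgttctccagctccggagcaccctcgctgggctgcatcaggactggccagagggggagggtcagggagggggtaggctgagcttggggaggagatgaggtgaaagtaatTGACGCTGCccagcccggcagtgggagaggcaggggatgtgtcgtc
Slc6a9, the third start: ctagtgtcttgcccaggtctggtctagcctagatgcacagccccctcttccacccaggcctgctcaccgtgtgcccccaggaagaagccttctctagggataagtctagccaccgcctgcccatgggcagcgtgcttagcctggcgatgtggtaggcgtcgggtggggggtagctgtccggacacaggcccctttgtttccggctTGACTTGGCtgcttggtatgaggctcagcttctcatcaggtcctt
Slc1a4: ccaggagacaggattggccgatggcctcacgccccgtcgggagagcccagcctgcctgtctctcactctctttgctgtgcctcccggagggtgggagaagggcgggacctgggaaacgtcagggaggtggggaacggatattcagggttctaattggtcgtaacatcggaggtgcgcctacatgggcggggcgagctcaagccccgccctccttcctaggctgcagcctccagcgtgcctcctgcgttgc
Slc38a2: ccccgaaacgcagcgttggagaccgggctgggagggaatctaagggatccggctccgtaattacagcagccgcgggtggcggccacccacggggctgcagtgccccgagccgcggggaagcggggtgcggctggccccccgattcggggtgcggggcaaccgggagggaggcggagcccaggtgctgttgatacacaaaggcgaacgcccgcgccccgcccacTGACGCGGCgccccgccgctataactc

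The antioxidant core lay from 46 to 38 bases before the second Slc6a9 start and from 45 to 37 bases before the third, and the first Slc6a9 start had no match. Slc38a2 held it from 27 to 19 bases before its start, although its level differed by only 0.12 between the groups, and Slc43a1 held it on the opposite strand. Slc1a4, which rose, and Slc3a1 and Slc38a4 had no match in these windows. None of the 10 windows held the amino acid response core. Over all 32851 start regions of the same length, 10.2% held the antioxidant core, beside 4 of the 10 member windows, and 3.45% the amino acid response core. Counted by gene, 11.5% of all genes held the antioxidant core, beside 3 of the 6 members. A match describes these letters and is not a site.

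Among carriers of dibasic amino acids, Slc7a2 and Slc3a1 fell. Slc7a2, the arginine and lysine carrier, read 5.59, 5.49, 4.27 and 5.66 in TrxR1/Gsr-null and 7.08, 6.81, 6.36 and 7.17 in WT livers at its brightest probe set. The groups did not overlap, and null replicate 3 lay well below the other 3 null livers. The log2 difference was -1.60 ± 0.32 (SE), with a 95% interval of -2.32 to -0.88 and adjusted p = 0.0174 by limma, and the call held with each array left out (adjusted p from 0.0167 to 0.0425). A second probe set read 3.56, 4.26, 3.85 and 3.97 in null and 6.46, 5.35, 4.33 and 4.83 in WT livers, again without overlap, but was not called over all probe sets (log2 difference -1.33, adjusted p = 0.126 by limma). The third was near the limit in both groups, at 2.84 ± 0.31 in null and 3.22 ± 0.27 in WT liver, and was not called (adjusted p = 0.396 by limma).

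Slc3a1 read 4.08, 3.56, 4.46 and 4.02 in TrxR1/Gsr-null and 6.98, 5.49, 5.43 and 5.16 in WT livers at its only probe set. WT replicate 1 was the highest, and the other 3 WT livers were still above every null liver. The log2 difference was -1.73 ± 0.38 (SE; adjusted p = 0.0233 by limma), 3.33-fold lower. The fold was 5.33 within replicates 1 and 2 of both groups and 2.07 within replicates 3 and 4 (adjusted p = 0.0394 and 0.108), and the call was lost without null replicate 1, 2 or 4 (adjusted p = 0.0628, 0.0736 and 0.0611). Slc7a9, the light chain that pairs with Slc3a1 in kidney and intestine, had group means of 2.34 ± 0.18 in null and 2.21 ± 0.17 in WT liver, both below the limit. The other heavy chain, Slc3a2, which pairs with Slc7a5 and Slc7a11, averaged 7.80 ± 0.60 in null and 7.33 ± 0.30 in WT liver and was not called (adjusted p = 0.388 by limma).

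Within the Slc38 family only the glutamine carrier Slc38a3 passed the gene test, with a log2 difference of -0.82. The system A carrier Slc38a4 differed by -0.67 without a call there, and Slc38a2 by -0.12. Slc38a3 read 10.51, 10.80, 10.59 and 11.16 in TrxR1/Gsr-null and 11.59, 11.38, 11.69 and 11.67 in WT livers. Every null liver was below every WT liver, by a mean of 0.82 ± 0.19 log2 units (SE; log2 difference -0.82, adjusted p = 0.0328 by limma). That call was close to the threshold and was lost without null replicate 1, 2 or 3 or WT replicate 1, 3 or 4 (adjusted p from 0.0569 to 0.0963), while the log2 difference stayed between -0.95 and -0.74.

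Slc38a4, the system A carrier of adult hepatocytes, read 11.05, 10.79, 10.00 and 10.59 in TrxR1/Gsr-null and 11.80, 11.62, 11.20 and 10.51 in WT livers at its brightest probe set. WT replicate 4 lay among the null livers, and the difference of -0.67 was not called (adjusted p = 0.238 by limma). Its other probe set read 10.63, 10.41, 10.65 and 10.57 in null and 11.40, 10.99, 11.35 and 11.25 in WT livers. There the groups did not overlap, the difference was -0.68 ± 0.14 (SE), and it was called over all probe sets (adjusted p = 0.0366 by limma), so both probe sets gave nearly the same difference and disagreed on the call. With their mean the adjusted p was 0.0545, and with array weights the brightest was called (adjusted p = 0.0307).

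Slc38a2, the system A carrier that amino acid shortage is known to raise, read 10.01, 9.73, 9.97 and 10.38 in TrxR1/Gsr-null and 9.96, 10.19, 10.40 and 10.01 in WT livers. The groups overlapped. The log2 difference of -0.12 had a 95% interval of -0.55 to 0.32 (adjusted p = 0.78 by limma). On chromosome 15, Slc38a2 lies between Slc38a1 and Slc38a4 in gene order. Slc38a1, another system A carrier, averaged 2.26 ± 0.09 in null and 2.31 ± 0.08 in WT liver, below the limit. Slc7a5, which carries large neutral amino acids, read 3.20, 2.88, 2.78 and 2.98 in null and 2.98, 3.05, 3.14 and 3.50 in WT livers, with only WT replicate 4 above the limit, and was left out of the gene test by the filter. Over all probe sets its log2 difference was -0.21 (95% interval -0.57 to 0.16, adjusted p = 0.57 by limma).

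**Figure D2:**
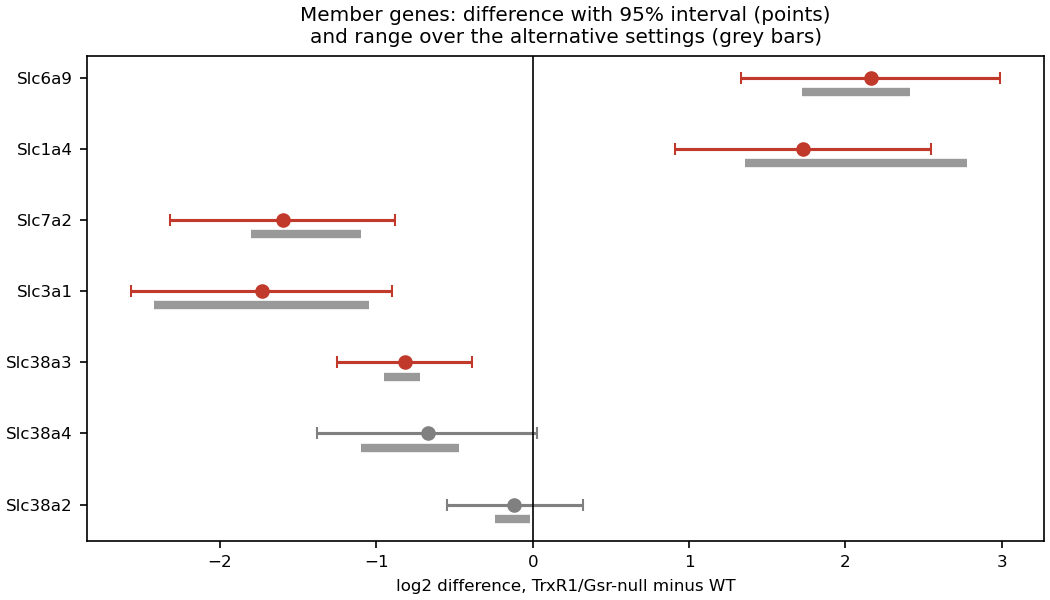
Log2 difference, TrxR1/Gsr-null minus WT, of the 7 member genes that passed the filter, with 95% intervals from limma (points and whiskers; red, adjusted p below 0.05; grey, not called). Grey bars under the points span the differences under the 20 or 21 alternative settings: Slc6a9 and Slc1a4 stay above 0 and the 5 other genes below 0 in all of them. For the called genes, whose groups did not overlap, leaving arrays out could not change the sign.

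The groups did not overlap for any of the 5 called members, so their direction could not change when the replicates were divided. Only the sizes are informative. Within replicates 1 and 2, and within replicates 3 and 4, Slc6a9 differed by 2.0 and 2.32, Slc1a4 by 2.10 and 1.36, Slc7a2 by -1.40 and -1.80 and Slc38a3 by -0.83 and -0.81 log2 units. With only 2 arrays per group, 4 of the 5 called genes were called in the first set, all but Slc38a3 (adjusted p = 0.0563 by limma), and none in the second. Quantile normalization shifted the all-gene median difference by -0.108. Relative to the median of the deposited values, Slc6a9 stood at 2.06, Slc1a4 at 1.64, Slc7a2 at -1.70, Slc3a1 at -1.83 and Slc38a3 at -0.92.

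The livers of one genotype also differed among themselves. TrxR1/Gsr-null replicate 4 had the highest null value for 8 of the 14 member probe sets (all of Slc6a9 and Slc1a4, the brightest of Slc7a2, Slc38a3 and Slc38a2). It had the highest for 25.1% of all genes tested and 37.4% of the genes called higher. Several of the 8 probe sets measure the same gene. Among other lists, it had the highest for 4 of 7 mitochondrial and lysosomal carriers and 15 of 23 amino acid response genes. It had the highest for 3 of 9 other plasma membrane transporters and 3 of 14 catabolism genes. Over the 8 arrays, deviations from the group means of Slc38a3 and Slc6a9 correlated at 0.82, although Slc38a3 fell and Slc6a9 rose. Those of Slc6a9 and Slc1a4 correlated at 0.50 and those of Slc7a2 and Slc3a1 at -0.13. With 8 arrays that share 2 genotypes these are descriptions.

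The genes with values most like a called member were found by Pearson's r over the 8 log2 values among all genes tested. For Slc6a9 they were Prune1 (r = 0.992), Mgst2, a microsomal glutathione transferase (0.981), and Cstb, a protease inhibitor (0.981). For Slc1a4 they were Chmp5, Ciapin1 and Chordc1 (0.98, 0.967 and 0.959). For Slc38a3 they were Scarb1, the HDL receptor (0.98), Prkd3 (0.979) and Rgs16 (0.97). Slc7a2 was closest to Sema4g (0.983), Gckr, the glucokinase regulator (0.98), and Ranbp10 (0.976), and Slc3a1 to Fabp5 (0.98), the leptin receptor Lepr (0.979) and Ubn1 (0.96). The same pairs correlated at 0.84 to 0.966 once the group means were subtracted, the highest being Slc7a2 with Sema4g. These pairs were picked from 7534 genes for their likeness and share the arrays and the genotypes.

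Other amino acid transporters of the plasma membrane were mostly near background. Of 44 listed genes, 30 had a probe set of their own and 9 passed the filter. Of these 9, 1 was called higher and none lower, against 4.47% and 2.15% of all genes. At an unadjusted limma p below 0.05, 2 were higher and 1 lower, and the share of all genes at that p was not counted here. The median log2 difference was 0.47 beside 0.096 for all genes, with 5 differences above 0 and 4 below. Slc1a1 had 0 WT values above the limit, and Slc7a7 and Slc1a5 had 2 each. All null values of these genes were above it. They passed the filter mainly through the null livers, which limits the median, and the median without them was not computed. The gene called was Slc1a1, the carrier of glutamate and cysteine. It read 5.07, 6.31, 5.43 and 6.83 in TrxR1/Gsr-null and 2.19, 2.40, 2.53 and 3.14 in WT livers, 10.2-fold (adjusted p = 0.000704 by limma). All WT values were below the limit and it passed the filter through the null livers alone, and with the mean of its 3 probe sets it was 2.29-fold. Slc7a11, the cystine and glutamate exchanger, read 3.93, 4.73, 3.11 and 6.04 in null and 1.94, 2.14, 2.24 and 2.60 in WT livers. Only 3 arrays exceeded the limit, so it entered the test only with no filter, where it was called (log2 difference 2.23 ± 0.52 SE, adjusted p = 0.0485 by limma). Slc1a5, which carries alanine, serine and glutamine, averaged 3.98 ± 0.41 in null and 3.39 ± 0.50 in WT liver and was not called (adjusted p = 0.26 by limma). Slc7a1, the cationic carrier of most other tissues, was below the limit in both groups (2.22 ± 0.09 in null and 2.19 ± 0.03 in WT liver). The taurine carrier Slc6a6 and the liver betaine and GABA carriers Slc6a12 and Slc6a13 were not called, but Slc6a12, at 7.06 ± 0.59 in null and 7.79 ± 0.46 in WT liver, was called lower with the replicate number as a block (log2 difference -0.73, adjusted p = 0.04 by limma, against 0.214 without it).

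Of 13 mitochondrial and lysosomal carriers 7 were tested and none was called. At an unadjusted limma p below 0.05, 3 were lower and 0 higher, and the share of all genes at that p was not counted here. Slc25a13, the aspartate and glutamate carrier of liver mitochondria, averaged 9.36 ± 0.26 in TrxR1/Gsr-null and 9.93 ± 0.34 in WT liver (adjusted p = 0.158 by limma, and 0.039 with a block of replicates 1 and 2 against 3 and 4), and Slc25a15, the ornithine carrier, 11.40 ± 0.19 and 11.64 ± 0.30 (adjusted p = 0.536 by limma). Slc25a44, a carrier of branched-chain amino acids, read 6.75, 6.90, 7.44 and 7.54 in null and 7.58, 7.95, 8.95 and 9.57 in WT livers, a difference of -1.36 ± 0.41 (SE) that missed the threshold (adjusted p = 0.0791 by limma, and 0.0141 with the replicate block). With the mean of its probe sets the Slc25a44 difference was -0.28 (adjusted p = 0.446 by limma). Slc25a22, a glutamate carrier, differed by -1.20 (adjusted p = 0.107 by limma, and 0.0459 with the replicate block).

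Of 28 genes of the amino acid response 23 were tested, and 1 was called higher and none lower, against 4.47% and 2.15% of all genes. The median log2 difference was 0.60 beside 0.096 for all genes. At an unadjusted limma p below 0.05, 7 were higher and 0 lower, and the share of all genes at that p was not counted here. Of those 7, Atf3 had 0 WT values above the limit, Fgf21 and Ddit4 had 1 each and Nupr1 had 2. All null values of these genes were above it, so they passed the filter mainly through the null livers, which limits the count and the median. With the replicate block 4 genes of the list were called higher: Psat1, Ddit4, Eif4ebp1 and Psph. The adjusted p of Ddit4, Eif4ebp1 and Psph was then 0.0459, 0.0493 and 0.0498 by limma, against 0.0569, 0.105 and 0.156 without the block. Psat1, the serine synthesis aminotransferase, read 5.09, 5.72, 5.57 and 6.94 in TrxR1/Gsr-null and 3.80, 3.49, 4.06 and 3.68 in WT livers, 4.21-fold (adjusted p = 0.00667 by limma). Atf4 itself averaged 8.85 ± 0.86 in null and 9.16 ± 0.45 in WT liver (adjusted p = 0.701 by limma), and Asns, asparagine synthetase, 4.39 ± 0.74 and 3.47 ± 0.72 (adjusted p = 0.232 by limma). TrxR1/Gsr-null replicate 4 had the highest null value for 15 of these 23 genes. The mean over the list was 6.24, 6.29, 6.03 and 7.15 in the null livers and 6.13, 5.78, 5.65 and 5.55 in the WT livers, so the groups overlapped on this mean, with null replicate 3 below WT replicate 1. Fgf21, a hormone released by stressed liver, read 4.35, 4.78, 4.33 and 9.13 in null and 3.82, 1.66, 2.24 and 2.11 in WT livers and was not called (adjusted p = 0.0834 by limma). Without null replicate 4, Fgf21 was called, and Slc6a9 was still called at 3.36-fold (adjusted p = 0.00353 by limma).

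**Figure D3:**
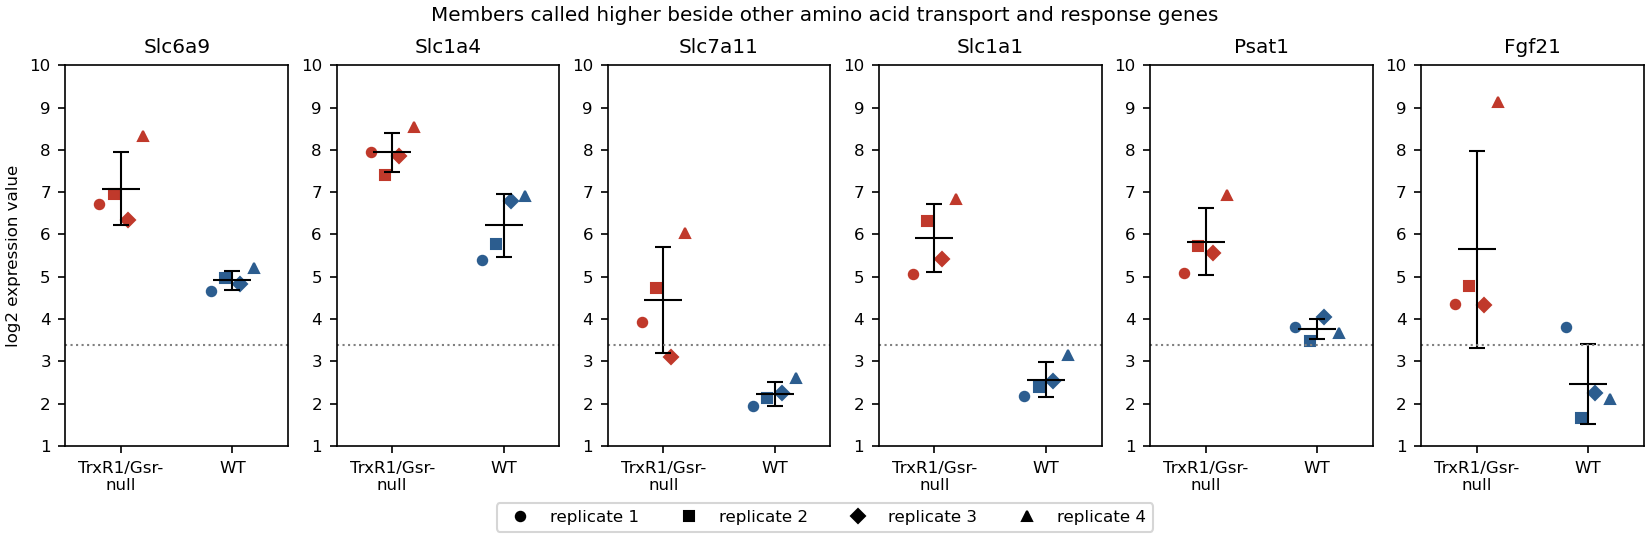
Log2 expression value on every array of the 2 members called higher and of 4 other amino acid transport and response genes, TrxR1/Gsr-null livers (red) left of WT livers (blue), bars giving mean ± SD of 4 arrays and the dotted line the limit of 3.38. TrxR1/Gsr-null replicate 4 (triangle) is the highest null liver in all 6, from 6.04 for Slc7a11 to 9.13 for Fgf21, as it was for 37.4% of all genes called higher. These 6 genes were picked for display, so they are not a count. Of other genes called higher, Bcat2 was highest in null replicate 1 (4.45), and Tfrc (10.31) and Epcam (4.11) in null replicate 2.

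Of 19 genes of amino acid catabolism 14 were tested, and 1 was called higher and 2 lower, against 4.47% and 2.15% of all genes. At an unadjusted limma p below 0.05, 2 were higher and 6 lower, and the share of all genes at that p was not counted here. The median log2 difference was -0.24 beside 0.096 for all genes. Hal, which breaks down histidine, a substrate of Slc38a3, fell to 10.26 ± 0.24 in TrxR1/Gsr-null liver, against 11.64 ± 0.21 in WT liver, a log2 difference of -1.38 (adjusted p = 0.00263 by limma). Bckdhb, a subunit of the branched-chain keto acid dehydrogenase, fell to 9.31 ± 0.20 in null liver, against 10.17 ± 0.12 in WT liver (adjusted p = 0.0173 by limma). Bcat2, the branched-chain aminotransferase, averaged 4.19 ± 0.23 in null and 3.12 ± 0.32 in WT liver (adjusted p = 0.0165 by limma), with 3 of 4 WT values below the limit. Without TrxR1/Gsr-null replicate 1 the calls of Bckdhb (adjusted p = 0.0508) and Bcat2 (adjusted p = 0.0526) were lost. Glul, glutamine synthetase of pericentral hepatocytes, averaged 10.71 ± 0.11 in null and 10.85 ± 0.69 in WT liver, and Arg1, arginase, 13.08 ± 0.13 and 13.03 ± 0.06. Neither was called (adjusted p = 0.832 and 0.883 by limma).

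**Figure D4:**
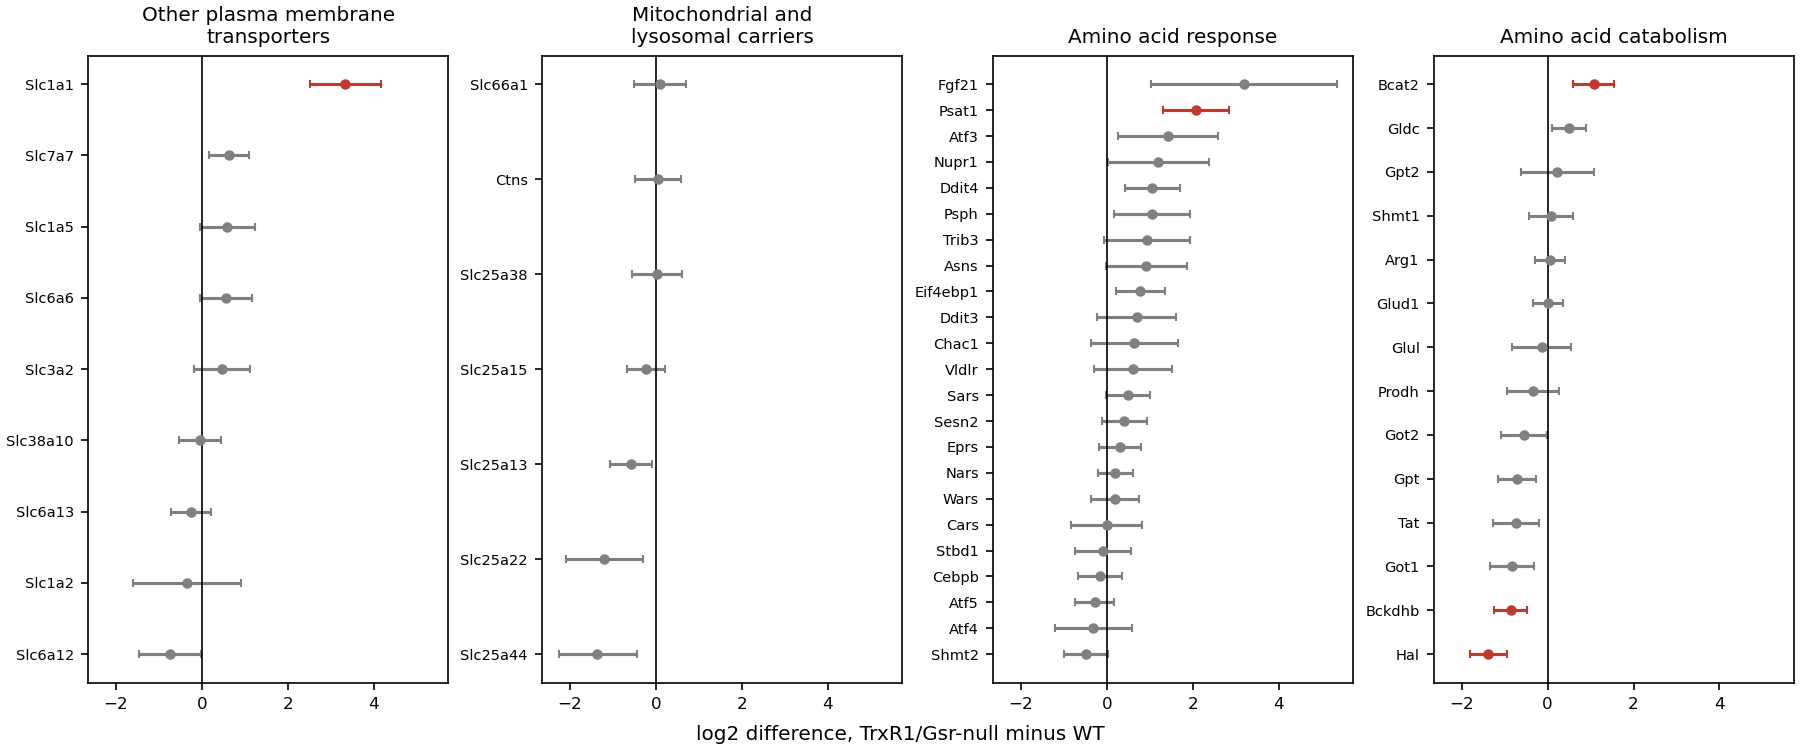
Log2 difference, TrxR1/Gsr-null minus WT, with 95% intervals from limma, of the tested genes of 4 lists (red, adjusted p below 0.05; grey, not called). Slc1a1, Psat1 and Bcat2 were called higher, and Hal and Bckdhb lower.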

How the data were processed

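Total RNA of 8 livers was labelled with biotin, per the labels' protocols, and hybridised to 1 array each. The authors used GCRMA, per the submitters' processing notes, with no version or settings stated there. The deposited values are on a log2 scale, read from their range of 0.53 to 14.61, which is an inference. GCRMA compresses low values, so the fold of a gene at background in one group depends on that step.

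Of 22690 probe sets, 64 controls were set aside, 20380 had 1 gene symbol, 691 several and 1555 none. Older symbols were replaced using the gene identifiers of a RefSeq table (GRCm38.p6, 20351 matched), used otherwise for gene order. For the gene fit, _x_at probe sets were set aside where a gene had another kind, the one with the highest mean was kept (12393 genes), and genes in the lowest 40% by mean (limit 3.38) were dropped if fewer than 4 arrays exceeded that limit, which left 7534. The test was that of limma 3.58.1 under R 4.3.3 (lmFit and eBayes, 2 groups, no covariates, two-sided, Benjamini-Hochberg), and over 22626 probe sets without the filter. The fit was checked on simulated data.

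Adjusted p-values with the replicate number as a block are printed where they alter the call of a named list gene. Same-numbered arrays deviated together (correlations of 0.21 to 0.37 over 4 pairs). They were no closer than arrays of other numbers within replicates 1 and 2 or 3 and 4 (0.20 to 0.40). The numbers come from the titles, which name no pairs, so calls made only with that block rest on the numbering. Precision is limited by having 4 arrays a group, and depth does not apply to arrays. Of any 2 arrays the highest correlation was 0.994. The members and lists were chosen with earlier results of these data known. Named by rule were every member and its probe sets, the called genes of each list (at most 6 a direction) or, with none called, its first 2 tested, the 3 genes most like each called member, the targeted genes and called markers. Other list genes were chosen after their values were seen. Alternatives covered the filter, the probe set per gene, scaling, blocks, array weights, the prior and left-out arrays.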

Additional observations from a re-analysis of the deposited data

Results flagged for a closer look

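In 2 of 50 groups of 4 values, an extreme value lay far from its nearest neighbour for the width of the group (Dixon's test at its 95% critical value), which chance gives in about 5% of groups. One was Slc7a2 at its brightest probe set in TrxR1/Gsr-null replicate 3, with 4.27 against 5.49 to 5.66 in the other null livers. The array of that liver also had the highest Actb 3′ minus 5′ difference (1.76), and a link was not tested. Without that liver Slc7a2 was 2.42-fold lower and still called (adjusted p = 0.0167 by limma). The other was the second Slc1a4 probe set in TrxR1/Gsr-null replicate 4, with 7.29 against 6.17 to 6.33.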

How the results depend on the processing

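The log2 difference of every member that passed the filter kept its sign in all 20 or 21 alternatives run for it. For the called members, whose groups did not overlap, leaving arrays out could not change the sign. Of the single-gene values, 125 stayed on the same side of the threshold, 20 lost a call and 1 gained one. The replicate block groups same-numbered livers, which the titles do not name as pairs. It left the member counts at 2 higher and 3 lower, and called 1 other plasma membrane transporter lower, 2 organelle carriers and 4 response genes. A block of replicates 1 and 2 against 3 and 4 gave these 3 counts too, with Slc25a13 in place of Slc25a22 among the carriers, 6 catabolism genes, and 647 higher and 334 lower over all genes. Quantile normalization left 1 member higher and 272 genes lower in all. Median centring gave 2 response genes. Array weights gave 578 and 428 genes, 1 organelle carrier, 3 response and 6 catabolism genes, and a trended, robust prior 2 response and 5 catabolism genes. Without WT replicates 3 and 4, 187 genes were higher, with 3 member probe sets higher and 2 lower. Replicates 1 and 2 alone gave 1 organelle carrier and 1 member probe set lower. Replicates 3 and 4 alone gave 162 and 30 genes, 0 members, 1 organelle carrier, 0 response and 0 catabolism genes, and 1 member probe set higher and 0 lower. With no filter 2 other transporters were higher. Leaving out the lowest 60% gave 0 other transporters and 0 response genes, since the genes called were no longer tested. The mean of a gene's probe sets gave 2 response and 6 catabolism genes. Without _x_at, _s_at and _a_at probe sets 0 response genes were called, since Psat1 was no longer tested. With 1 array left out, the counts were 196 to 387 genes higher and 75 to 134 lower, 1 to 2 members higher and 1 to 3 lower, 2 to 4 member probe sets higher and 0 to 1 lower, 0 to 1 organelle carrier, 1 to 2 response genes and 1 to 4 catabolism genes. The cause of these shifts was not tested, beyond the smaller number of arrays or genes that an alternative holds.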
